A study of Setaria viridis with 24 samples.

Results

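In Setaria viridis, a small C4 grass, 96 genes had a lower level under drought than with watering in the crown at day 6 and a higher level at day 9. They were chosen from 20865 genes with a value in all 8 groups of the study. A gene was taken if the drought over watered ratio of the crown was at most 0.75 at day 6 and at least 1.5 at day 9, with 1 FPKM added to each value, and if its highest group value was at least 5 FPKM. FPKM is the number of fragments scaled to the length of the transcript and to the mapped fragments of the library. In all, 17043 genes met the minimum of 5 FPKM, and the 96 genes were 0.563% of them. The crown values therefore define the set, and everything said of the crown drought ratios below is a description.

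The crown is the base of a grass shoot, from which shoot-borne roots emerge. These roots make up most of the mature root system of grasses, and in dry soil their outgrowth is known to be held back in several grasses. The study's title names the suppression of shoot-borne roots under drought, and the crown is the region where that takes place.

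The plants were grown in sand and peat and were either watered or kept under drought. For each library 20 plants were harvested, 6 or 9 days after sowing, and the lower region (crown) or the upper region (stem) was taken. The 8 groups were the watered and the drought crown and the watered and the drought stem, each at both ages, with 3 libraries per group and 24 in all. RNA was depleted of ribosomal RNA and sequenced with the strand kept. The labels name no genotype, and they do not say whether crown and stem came from the same plants.

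The deposited tables give 1 FPKM value per gene and group, set by the authors from the 3 libraries, so no value below has a standard deviation and depth per library is unknown. In bulk tissue fewer cells of a type and less RNA per cell cannot be told apart. The genes are named by the identifiers of the files, because the files hold no description and 0 of the 96 identifiers matched the reference name table. For the same reason the labelled regions could not be checked against marker genes, and no role is given for any gene. Positions are those of the files, whose genome build is not given in the sources used here.

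Drought crowns held both the lowest and the highest median level of the 96 genes among the crown groups. The median level was 5.11 FPKM in watered day 6 crowns, 2.74 FPKM in drought day 6 crowns, 5.19 FPKM in watered day 9 crowns and 12.2 FPKM in drought day 9 crowns. Over the 17043 genes at the minimum the same 4 medians were 13.6, 13.4, 14.3 and 14.1 FPKM. The day 6 drought over watered ratio of the 96 genes ran from 0.269 to 0.749 with a median of 0.615, and the day 9 ratio from 1.504 to 7.68 with a median of 2.03. For 51 genes the day 9 ratio was 2 or more, for 14 genes the day 6 ratio was 0.5 or less, and 10 genes had both.

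**Figure D1:**
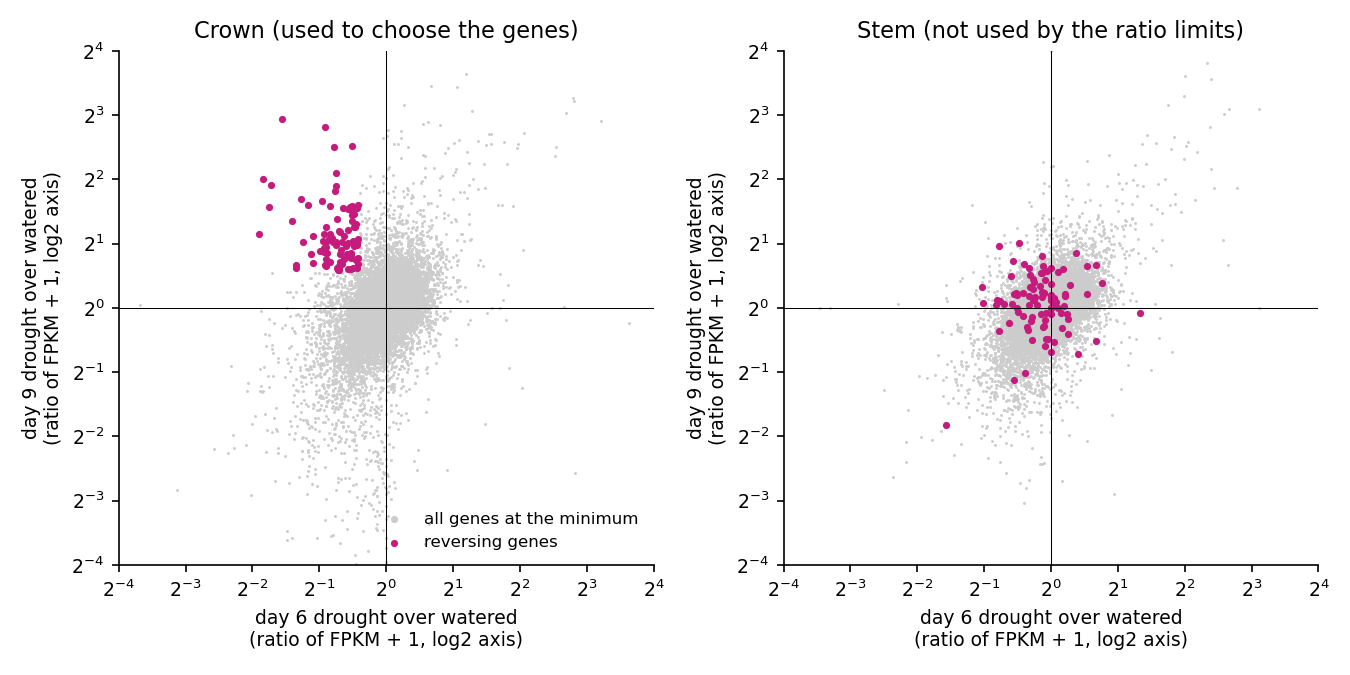
Drought over watered ratio (FPKM + 1, log2 axes) at day 6 against day 9 in the crown (left) and the stem (right), with 1 point per gene, the 17043 genes at the minimum in grey and the 96 reversing genes in pink. In the crown the pink points fill the upper left corner because the rule put them there, and in the stem they lie around the centre, shifted a little to the upper left. The axes leave out 25 genes in the crown panel and 4 in the stem panel.

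Either limit alone was met by many more genes. Of the genes at the minimum, 1840 met the day 6 limit and 1025 met the day 9 limit. The 96 genes were 5.22% of the first, where 6.01% of all genes at the minimum met the day 9 limit. They were 9.37% of the second, where 10.8% of all genes at the minimum met the day 6 limit. Neither limit was met more often among genes that met the other. The other way round, 30 genes were at least as far higher at day 6 and lower at day 9 by the reciprocal limits, which was 0.176% of the genes at the minimum. The shares that met each reciprocal limit alone are not given here, so nothing is read from 96 against 30. At the limits of the rule, the nearest day 6 ratio was 0.749 inside and 0.751 outside, and the nearest day 9 ratio 1.504 inside and 1.496 outside. The nearest highest values were 5.04 FPKM inside and 4.97 FPKM outside.

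The authors' own test called 7 of the 96 genes in the crown on both days, at their adjusted p under 0.05. At day 6, 79 of the 96 genes were listed and 14 of them were called lower, where 1.58% of all listed genes were. At day 9 all 96 genes were listed and 35 were called higher, against 2.2% of all listed genes. The rule used both contrasts, so nothing is read from these counts. Another 7 genes were called at day 6 alone, 28 at day 9 alone, and 54 on neither day. The 17 genes not listed at day 6 had no call there and are counted among the 28 and the 54. For 89 of the 96 genes at least 1 of the crown differences did not pass or was not listed, and their reversal is one of group values only. Over every gene listed, 7 were called lower at day 6 and higher at day 9, all of them among the 96, and 0 genes the other way round. For that other way, 0.5% of all listed genes were called higher at day 6 and 4.17% lower at day 9. Whether 7 and 0 differ from what the shares of single days give was not tested. The authors adjusted p over all 28 tables jointly. With the deposited p-values adjusted within each table, 1 gene of the 96 was called lower at day 6 (0.369% of all listed genes were) and 22 higher at day 9 (1.32%), and 0 on both days.

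Among these 7 genes, a pair on chromosome 9 was the most abundant. Sevir.9G333100 (chromosome 9, 36711835 to 36713346) stood at 94.3 FPKM in watered and 48.6 FPKM in drought crowns at day 6, and at 94.0 and 194 FPKM at day 9. Sevir.9G332400 (chromosome 9, 36574932 to 36576653) stood at 64.6 and 29.9 FPKM at day 6, and at 74.3 and 162 FPKM at day 9. In both genes the drought crown had the lowest crown value at day 6 and the highest at day 9. The watered crowns of the ages lay closer together, with an adjusted p of 0.996 for Sevir.9G333100 and 0.760 for Sevir.9G332400 in the authors' deposited table. In the authors' deposited tables the adjusted p of Sevir.9G332400 was 0.00167 at day 6 and 0.0205 at day 9, and that of Sevir.9G333100 was 0.0109 and 0.0271. With the p-values of Cuffdiff in the authors' deposited tables adjusted within a table, Sevir.9G332400 had 0.0263 at day 6 and 0.0514 at day 9. The pair lies 135181 bases apart with 6 listed genes between them.

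Both genes of this pair were also present in the stem. Sevir.9G332400 stood at 47.0 FPKM in watered and 31.8 FPKM in drought stems at day 6, and at 33.6 and 39.0 FPKM at day 9. Sevir.9G333100 stood at 47.6 and 42.7 FPKM at day 6, and at 48.7 and 71.4 FPKM at day 9. The order of drought and watered stems was that of the crown on both days in both genes, with smaller gaps. None of these 4 stem differences passed in the authors' deposited tables, where the adjusted p ran from 0.191 to 0.829.

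A pair of direct neighbours, also on chromosome 9, passed on both days. Sevir.9G555500 (chromosome 9, 54153527 to 54154290) stood at 5.78 FPKM in watered and 1.05 FPKM in drought crowns at day 6, and at 4.15 and 18.4 FPKM at day 9. Next to it, 5229 bases away, Sevir.9G555600 (chromosome 9, 54159520 to 54161412) stood at 3.91 and 1.06 FPKM at day 6, and at 7.06 and 15.3 FPKM at day 9. Their adjusted p in the authors' deposited tables was 0.0424 and 0.0255 at day 6, and 0.00091 and 0.0334 at day 9. The stem set the neighbours apart. Sevir.9G555500 stayed between 0.435 and 0.682 FPKM in the 4 stem groups, whereas Sevir.9G555600 went from 1.46 FPKM in watered and 0.703 FPKM in drought stems at day 6 to 3.76 and 4.58 FPKM at day 9.

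Sevir.5G290900 (chromosome 5, 33546504 to 33547993) showed the reversal over an even watered level. Watered crowns had 7.61 FPKM at day 6 and 7.59 FPKM at day 9, and drought crowns had 2.55 FPKM and 26.9 FPKM. All 4 of its stem values were under 1 FPKM. Its adjusted p in the authors' deposited tables was 0.0173 at day 6 and 0.00091 at day 9.

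Sevir.8G121100 (chromosome 8, 20258230 to 20259723) had at most 0.11 FPKM in the stem. It stood at 3.58 FPKM in watered and 0.363 FPKM in drought crowns at day 6, and at 8.44 and 26.9 FPKM at day 9. Both crowns had the higher value at day 9, and the drought crown started from the lower one. Its adjusted p in the authors' deposited tables was 0.0337 at day 6 and 0.00091 at day 9.

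Sevir.2G290100 (chromosome 2, 36604676 to 36606583) had day 6 stem levels close to those of the crown. It stood at 7.05 FPKM in watered and 3.31 FPKM in drought crowns at day 6, and at 4.17 and 11.4 FPKM at day 9. In the stem it stood at 6.83 and 4.15 FPKM at day 6, and at 2.81 and 4.40 FPKM at day 9, so that the drought and watered stems also changed places. The crown differences had an adjusted p of 0.0437 and 0.0162 in the authors' deposited tables, and the stem differences 0.226 and 0.446. Its neighbour Sevir.2G290000 (chromosome 2, 36600386 to 36602486), 2189 bases away, had the same order of the 4 crown groups, with 4.51 and 2.17 FPKM in day 6 crowns and 2.54 and 6.17 FPKM in day 9 crowns, watered first. In the stem that neighbour stood at 4.09 and 2.59 FPKM at day 6 and at 2.48 and 3.05 FPKM at day 9.

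**Figure D2:**
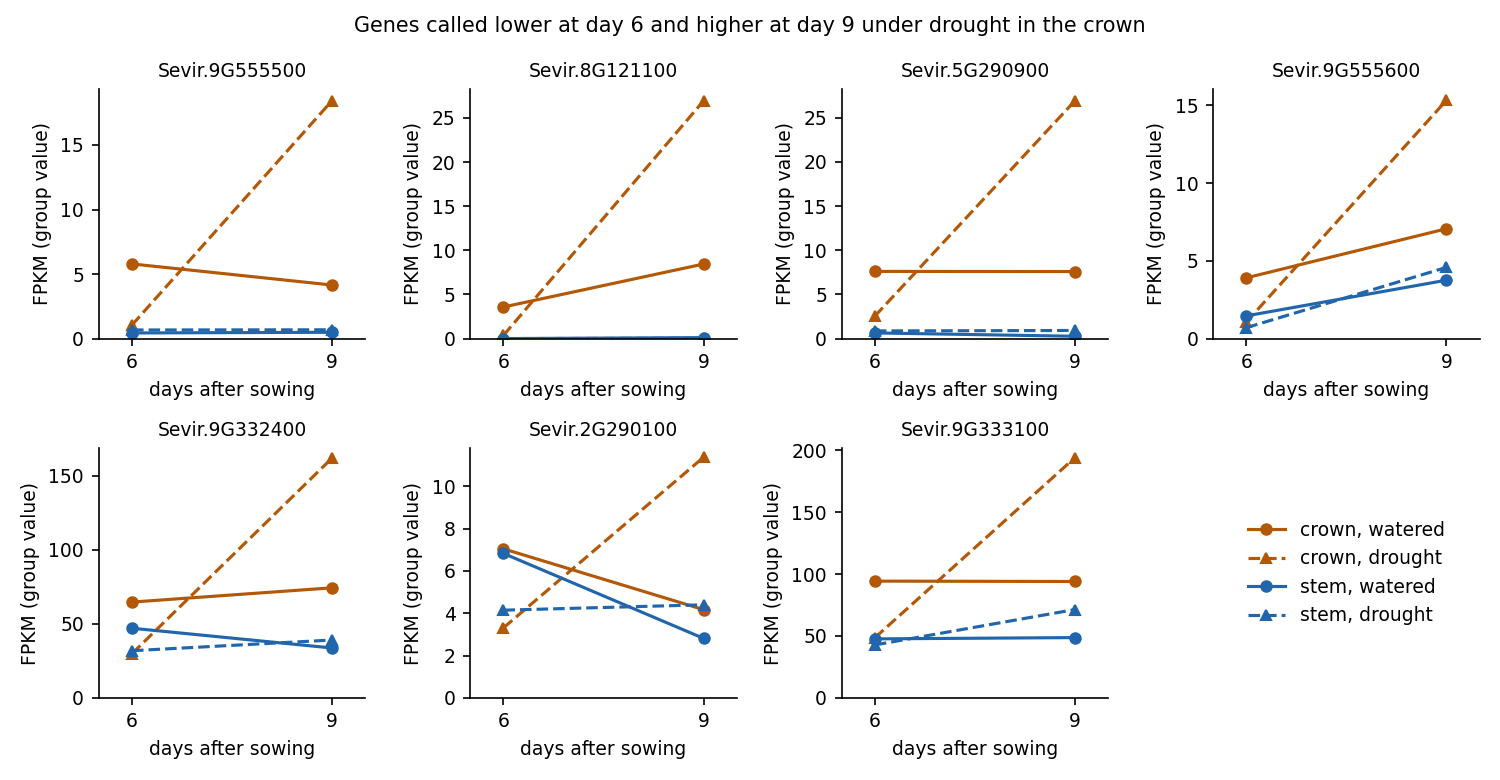
FPKM (1 group value per point, linear axes from 0) of the 7 genes called on both days, by days after sowing, with the crown in brown, the stem in blue, watered plants as circles with solid lines and drought plants as triangles with dashed lines. In each gene the drought crown starts under the watered crown at day 6 and ends over it at day 9, and the stem lines lie lower than the drought day 9 crown.

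The third pair of neighbours lay on chromosome 8, with a low level at day 6. Sevir.8G032500 (chromosome 8, 2243357 to 2244697) stood at 2.42 FPKM in watered and 0.720 FPKM in drought crowns at day 6, and at 6.33 and 12.5 FPKM at day 9. Sevir.8G032700 (chromosome 8, 2256035 to 2257913), 11337 bases away, stood at 0.895 and 0.274 FPKM at day 6, and at 3.45 and 11.9 FPKM at day 9. The former was called on neither day, and the latter was not listed at day 6 and was called at day 9 (adjusted p = 0.00167 in the authors' deposited table).

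Genes with the largest quotient of the day 9 over the day 6 ratio mostly had short spans, and 5 of the 6 with the largest spanned under 1000 bases. In Sevir.7G229300 (chromosome 7, 27621664 to 27622457) the quotient was 22.6, from 3.93 and 0.677 FPKM at day 6 and 4.77 and 43.3 FPKM at day 9, watered before drought. Its day 9 difference passed and its day 6 difference did not (adjusted p = 0.00091 and 0.143 in the authors' deposited tables). Sevir.2G260300 (chromosome 2, 34166753 to 34167107) stood at 8.23 FPKM in drought day 9 crowns and under 1 FPKM in the other 7 groups, with a value of 0 in drought day 6 crowns. Its day 9 crown difference was not called (adjusted p = 0.545 in the authors' deposited table), and it was not listed for the day 6 crown difference.

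In 2 further genes of large quotient the low value was that of the watered day 9 crown. Sevir.1G099300 (chromosome 1, 8508686 to 8509310) stood at 13.1 FPKM in watered and 6.50 FPKM in drought crowns at day 6, and at 0.393 and 8.77 FPKM at day 9, while its 4 stem values lay between 7.82 and 15.4 FPKM. Sevir.8G262100 (chromosome 8, 39848335 to 39848644) stood at 5.55 and 0.832 FPKM at day 6, was listed at 0 in watered day 9 crowns and stood at 2.99 FPKM in drought day 9 crowns. Neither was called under drought in the crown on either day.

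The 5 genes with the highest single value were Sevir.9G333100, Sevir.9G332400 and 3 others. Sevir.5G368500 (chromosome 5, 39051168 to 39053291) stood at 71.9 FPKM in watered and 50.2 FPKM in drought crowns at day 6, and at 60.1 and 165 FPKM at day 9. Sevir.3G005800 (chromosome 3, 345776 to 347169) stood at 42.4 and 27.9 FPKM at day 6, and at 86.8 and 157 FPKM at day 9. The third, Sevir.9G072800, had its highest value in the stem and is described with it. Sevir.5G368500 passed in the authors' deposited table at day 9 (adjusted p = 0.00525), and Sevir.3G005800 on neither day.

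Between the ages, watered crowns were divided and drought crowns were almost uniform. These values share groups with the rule and are a description. By construction the day 9 over day 6 ratio is at least 2 times as large in drought as in watered crowns. In watered crowns 43 genes (44.8%) were higher and 53 (55.2%) lower at day 9, with ratios of FPKM + 1 from 0.0986 to 4.27 and a median of 0.963. The genes at the minimum were divided there too, with 50.5% higher, 49.5% lower and a median of 1.003. In drought crowns 94 of the 96 genes were higher and 2 lower, with ratios from 0.728 to 27.4 and a median of 3.13. Of the genes at the minimum 50.7% were higher there, with a median of 1.005. Of the 89 genes listed for watered crowns, 10 were called higher at day 9 and 10 lower, where 8.56% and 2.0% of all listed genes were. Of the 96 listed for drought crowns, 54 were called higher and 0 lower, where 7.97% and 2.59% of all listed genes were.

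For all 96 genes the highest crown value was that of the drought crown at day 9 or the watered crown at day 6, since the rule allows no other. In 69 genes the drought crown held both ends, the lowest at day 6 and the highest at day 9. Watered crowns held both ends in 16 genes, highest at day 6 and lowest at day 9. The other 11 genes were mixed, 6 with the highest value in drought day 9 and the lowest in watered day 9 crowns, and 5 with the highest in watered day 6 and the lowest in drought day 6 crowns. In the 69 genes the median day 9 over day 6 ratio was 1.15 in watered and 4.88 in drought crowns, and 34 of them were called at day 9 in the crown. In the 16 genes it was 0.378 in watered and 1.35 in drought crowns, and 0 were called at day 9. Of all listed genes 2.2% were called higher at day 9. At day 6, 9 of the 69 and 3 of the 16 genes were called lower, where 1.58% of all listed genes were. Genes not listed at day 6 count as not called here. The genes were sorted by these same crown values, which sets part of these contrasts.

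The genes were then divided by their level in the stem. In 26 of the 96 genes (27.1%) all 4 stem values were under 1 FPKM, which held for 2.03% of the genes at the minimum. In 34 genes (35.4%) the mean stem value was 5 FPKM or more, against 82.2% of the genes at the minimum. These limits were chosen after the values were seen. Genes with little or no stem level had the highest crown value in drought day 9 crowns in 26 of 26 cases, and genes with the higher stem level in 18 of 34. The minimum of 5 FPKM sets part of this contrast. The former could meet it in the crown only, and 14 of the 26 met it in drought day 9 crowns alone, whereas each of the 34 met it in a stem group. The median day 9 over day 6 ratio of watered crowns was 1.78 in the former and 0.662 in the latter, and that of drought crowns 7.97 and 1.90. In the other 36 genes these medians were 0.855 and 2.82. By these medians the genes with little or no stem level were higher at day 9 in both crowns. Those with the higher stem level and the other 36 were lower in watered and higher in drought crowns. The minimum also sets part of the drought crown ratio of the 26 genes. The same medians over all genes of each stem level are not given here, so no kinds of reversing gene are told apart.

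**Figure D3:**
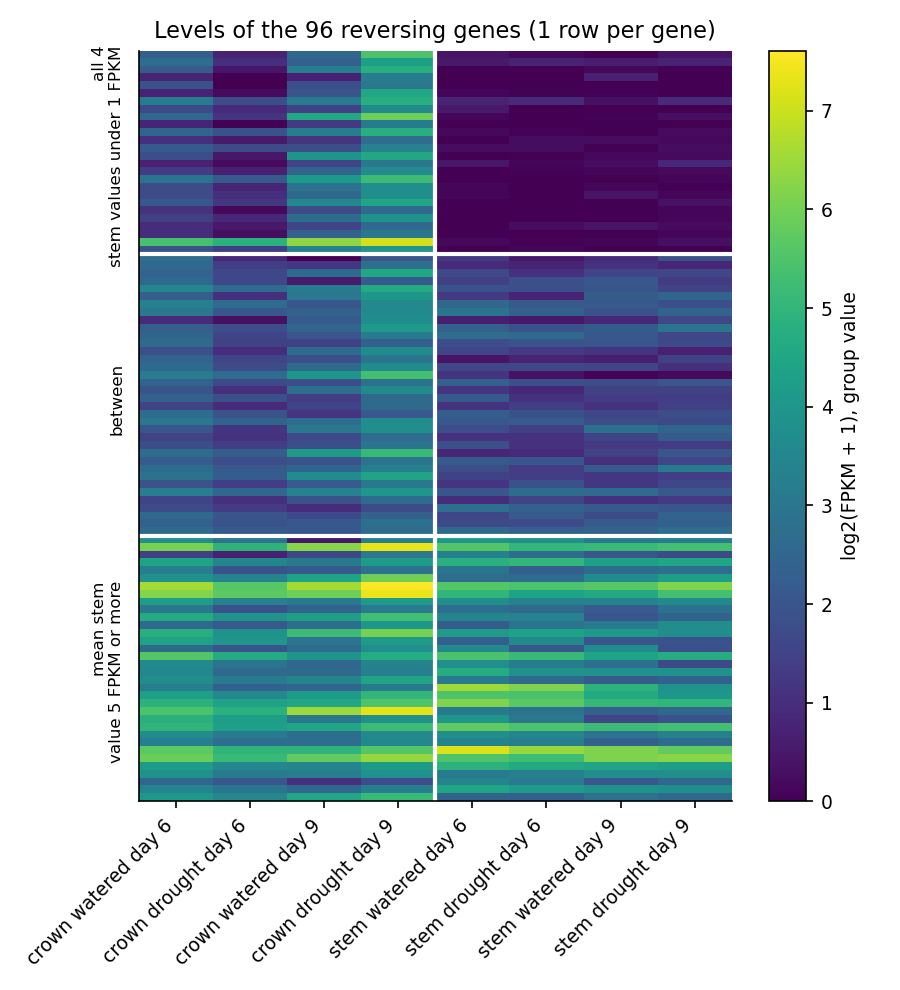
Levels of the 96 genes as log2(FPKM + 1) group values, 1 row per gene and 1 column per group, in 3 blocks by stem level and within a block by falling quotient of the day 9 over the day 6 ratio. In the top block of 26 genes the stem columns stay dark and the drought day 9 crown is the brightest column. In the bottom block of 34 genes the stem columns are brighter than in the top block, and some genes differ between the stem groups.

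**Figure D4:**
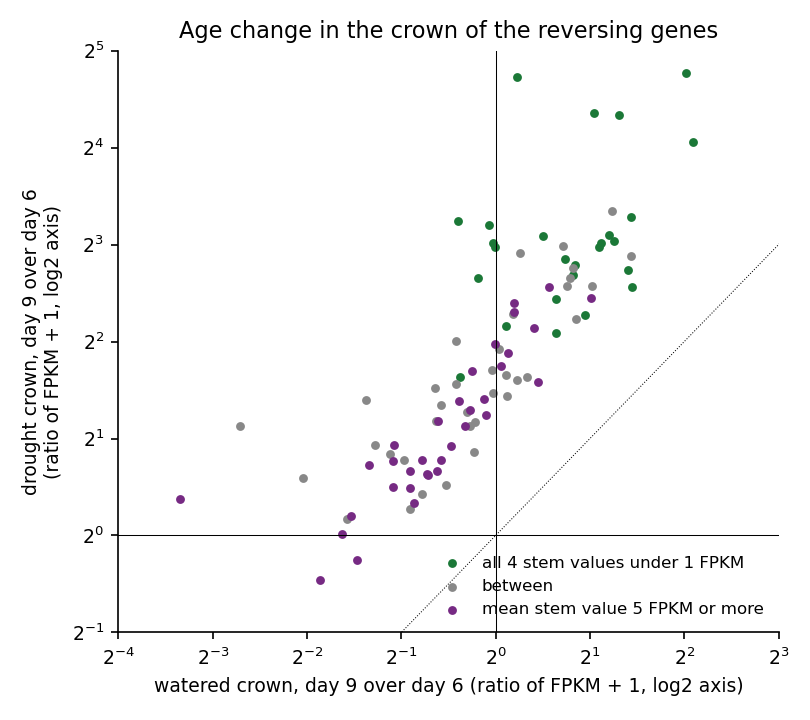
Day 9 over day 6 ratio of FPKM + 1 in watered crowns (horizontal) and drought crowns (vertical), log2 axes, 1 point per reversing gene, coloured by stem level, with equal ratios on the dotted line. All points lie above the line because of the rule, the 26 genes with stem values under 1 FPKM lie mostly in the upper right, and the 34 with a mean stem value of 5 FPKM or more spread to the lower left.

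Compared with the stem of the same day and water supply, calls of a higher crown level were most frequent at day 9 under drought. In drought plants at day 9, 44 of 96 genes were called higher in the crown and 0 lower, where 11.6% and 6.64% of all listed genes were. In watered plants at day 9, 23 of 86 listed genes were called higher in the crown and 3 lower, where 12.0% and 6.88% of all listed genes were. At day 6, 18 of 80 listed genes were called higher and 8 lower in watered crowns, where 8.3% and 12.3% of all listed genes were. In drought plants at day 6, 5 of 62 were higher and 8 lower, where 6.44% and 10.7% were. These comparisons use the crown values of the rule, which made drought crowns low at day 6 and high at day 9.

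The stem libraries were not used by the ratio limits, although the minimum of 5 FPKM could be met there. In the stem the 96 genes were, by their medians, slightly lower under drought at day 6 and slightly higher at day 9. The day 6 drought over watered ratio of the stem had a median of 0.912, with the middle 50% of genes between 0.763 and 1.01, against a median of 0.986 over the genes at the minimum. The day 9 ratio had a median of 1.09, with the middle 50% between 0.929 and 1.27, against 0.988. At day 6, 62 genes (64.6%) were lower and 25 higher under drought, where 53.2% of the genes at the minimum were lower. At day 9, 61 genes (63.5%) were higher and 31 lower, where 46.9% of the genes at the minimum were higher. The shift was small beside that of the crown, whose medians were 0.615 and 2.03 by choice.

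Both signs together were found in 41 of the 96 genes (42.7%), lower at day 6 and higher at day 9 in the stem, against 16.8% of the genes at the minimum. The other way round it was 9 genes (9.38%), against 16.3%. Among the 34 genes with a mean stem value of 5 FPKM or more, 19 (55.9%) crossed as in the crown, where 15.9% of all genes with that stem level did. Of these 34 genes, 29 were lower at day 6 and 22 higher at day 9. Genes that met only the day 6 limit in the crown crossed in the stem in 8.54% of 1744 cases, and those that met only the day 9 limit in 28.4% of 929. No test was made of these shares. By the series' design text each repeat comprised all 8 groups. A deviation common to crown and stem of the same water supply and day cannot be told apart from a response of both regions.

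Few single genes passed in the stem. At day 6, 57 of the 96 genes were listed, of which 2 were called lower and 0 higher under drought, where 0.916% and 0.528% of all listed genes were. At day 9, 57 were listed, of which 1 was called lower and 0 higher, where 2.37% and 1.26% of all listed genes were. The authors' test is the one their notes name as Cuffdiff. By its unadjusted p under 0.05, 8 genes were lower and 1 higher at day 6 (3.39% and 1.87% of all listed genes), and 3 were higher and 2 lower at day 9 (3.48% and 5.57%). Of the 39 genes not listed at each day, 38 were under 2 FPKM in both stem groups. No gene of the set was called higher in the day 9 stem, the direction of its crown ratio, which does not show that the stem levels were alike.

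Both genes called in the day 6 stem were more abundant in stem than in crown. Sevir.9G072800 (chromosome 9, 4338743 to 4340592) stood at 146 FPKM in watered and 84.7 FPKM in drought stems at day 6, and at 69.5 and 54.1 FPKM at day 9. In the crown it stood at 50.4 and 30.4 FPKM at day 6, and at 30.1 and 47.8 FPKM at day 9. Drought stems were the lower ones on both days, whereas drought crowns were the higher ones at day 9. Its day 6 stem difference had an adjusted p of 0.0334 in the authors' deposited table, and its day 9 stem difference 0.468.

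Sevir.9G344600 (chromosome 9, 38081667 to 38083461) stood at 24.9 FPKM in watered and 13.7 FPKM in drought stems at day 6 (adjusted p = 0.0379 in the authors' deposited table). At day 9 the stems were level, at 13.5 and 14.0 FPKM. Its crown values were 10.6 and 5.17 FPKM at day 6 and 5.18 and 8.82 FPKM at day 9. In both regions the watered day 6 value was the highest.

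The gene called in the day 9 stem went against its crown. Sevir.9G378200 (chromosome 9, 41315904 to 41316902) stood at 29.1 FPKM in watered and 13.9 FPKM in drought stems at day 9 (adjusted p = 0.0229 in the authors' deposited table), and at 91.5 and 70.0 FPKM at day 6. In the crown it stood at 8.55 and 4.12 FPKM at day 6, and at 4.58 and 7.78 FPKM at day 9. Its crown differences were called on neither day (adjusted p = 0.109 and 0.400 in the authors' deposited tables). Whether crown and stem differed in their response was not tested, because that needs values per library.

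In 3 genes the stem ratios met the limits of the crown rule, as in 28 genes (0.164%) of those at the minimum. Sevir.5G368500 had 30.9 FPKM in watered and 20.4 FPKM in drought stems at day 6, and 23.7 and 39.8 FPKM at day 9. Sevir.1G373500 (chromosome 1, 40571815 to 40573702) had 2.53 and 1.54 FPKM in day 6 stems and 3.39 and 7.86 FPKM in day 9 stems, against 5.44 and 3.35 FPKM and 4.53 and 8.77 FPKM in crowns. Sevir.8G262100 had 1.46 and 0.434 FPKM in day 6 stems and 0.905 and 2.70 FPKM in day 9 stems. Sevir.8G262100 was not listed in either stem table, and neither of the others passed there, where the smallest adjusted p in the authors' deposited tables was 0.0763, that of Sevir.1G373500 at day 9.

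Between the ages, calls in watered stems were mostly lower at day 9, and calls in drought stems lay on both sides. Of 57 genes listed for watered stems, 12 were called lower and 1 higher at day 9, where 6.76% and 4.41% of all listed genes were. Of 58 listed for drought stems, 8 were called higher and 4 lower, where 4.08% and 7.3% of all listed genes were. Over all 96 genes the median day 9 over day 6 ratio was 0.943 in watered and 1.01 in drought stems, against 0.981 and 0.990 over the genes at the minimum. Among the 16 genes whose watered crown held both ends, 14 were lower at day 9 in watered stems and 13 in drought stems. Over the genes at the minimum, 52.6% were lower at day 9 in watered stems and 51.2% in drought stems.

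The rule did not use the span or the position of a gene. The span, from the start to the end of a gene's position entry, had a median of 1364 bases in the 96 genes, against 3775 bases over the genes at the minimum. It ran from 205 to 15678 bases, the longest being an entry that Sevir.9G046100 shares with 3 other genes. The span is not the length of the transcript, which was not used here. Spans under 1000 bases were found for 31 genes (32.3%), against 5.66%. The highest of the 8 values, on which the rule set its minimum, was under 10 FPKM in 33.3% of them, against 22.7%. A short transcript of low level rests on few fragments, and the part of this in the reversal was not tested. The 7 genes called on both days had a median span of 1512 bases and a median highest value of 26.9 FPKM. For the 54 called on neither day, some of them not listed at day 6, it was 1057 bases and 11.3 FPKM.

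By position, 14 of the 96 genes (14.6%) lay on chromosome 8, which holds 5.45% of the genes at the minimum. Chromosome 9 held 21 genes (21.9%), against 18.7%, and chromosome 3 held 14 (14.6%), against 12.4%. On chromosome 8, 1.51% of the genes at the minimum were in the set, and on the other 8 chromosomes between 0.308% and 0.664%. Among the 96 genes 3 pairs were direct neighbours, the pairs described above. The spans of 6 genes overlapped another listed gene, and 4 of these repeat the position entry of another gene, so that their fragments could have been divided between genes. None of these 6 is among the 7 genes called on both days.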

How the data were processed

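Measured was RNA of 24 libraries in 8 groups. Per the file headers, the authors deposited 28 tables, 1 per pair of groups, each with an FPKM value per gene and group, a log2 fold change, a p-value and an adjusted p-value (q-value). FastQC, cutadapt and Cuffdiff were used, per the submitters' processing notes. Neither aligner nor build is given in the sources. A group had the same value in each of its tables (0 differences), and the deposited q-values equalled 1 Benjamini-Hochberg adjustment over all 531416 rows within 5.3e-07. The smallest deposited p is 5e-05, so the p-values do not rank genes that share it.

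Group values were joined by gene identifier with pandas 2.3.3. Ratios use FPKM + 1, which understates the change of low genes. Adjusted p under 0.05 is called. A gene not listed in a table has no call. Nothing could be refitted on libraries, whose number and unknown depth limit the precision, so the authors' calls were used throughout. The rule was run on simulated group values without noise, which checks the code only. How often noise alone meets the limits was not tested. The genes and lists were chosen with earlier results of these data known.

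The genes named were those called in the crown on both days, the 5 with the highest value, the 6 with the largest quotient of the crown ratios, those called in the stem under drought, those whose stem ratios meet the limits 0.75 and 1.5, and neighbours, 20 genes in all. Alternatives were other pseudocounts, minimums, limits and call rules.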

Additional observations from a re-analysis of the deposited data

How the results depend on the processing

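The set held 96 genes, 118 with 0.5 FPKM added, 66 with 2 FPKM added, 64 with a minimum of 10 FPKM, 134 with no minimum, and 10 with limits of 0.5 and 2. The median log2 drought ratio in the stem kept its sign under the alternatives run. At day 6 it was -0.13, and -0.058 with 5 FPKM added and -0.27 among genes with a mean stem value of at least 5 FPKM. At day 9 it was 0.13, and 0.21 with 0.1 FPKM added and 0.037 with 5 FPKM added. The 41 genes that crossed in the stem became 3 under the limits 0.75 and 1.5. Under an adjusted p of 0.01, or with adjustment within the table, the 2 calls of the day 6 stem and the 1 call of the day 9 stem became 0. With adjusted p under 0.01, calls between the ages in watered stems became 0 higher and 5 lower, and in drought stems 2 higher and 2 lower. At an unadjusted p under 0.05, chosen after the data were seen, the counts were 1 higher and 8 lower in the day 6 stem, 3 higher and 2 lower in the day 9 stem, 4 higher and 18 lower between the ages in watered stems, and 11 higher and 11 lower in drought stems. No paired analysis was possible because the files hold 1 value per group, and for the same reason no replicate could be left out. Depth per library is unknown, so how many fragments lie behind the low values cannot be stated.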
